A study of Mus musculus with 8 samples.

Results

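The integrin and laminin genes are the cell's main receptors for basement membrane and the main glycoproteins those receptors bind there. Members were all protein-coding genes of the count table whose symbol begins with Itga, is Itgb followed by a single digit, or is Lama, Lamb or Lamc followed by a single digit. This gave 37 genes of 54532, made up of 18 integrin alpha chain genes, 8 integrin beta chain genes and 11 laminin chain genes. RNA was sequenced from the corpus, the acid- and pepsinogen-secreting region of the stomach, of 4 mutant and 4 control mice, given as biological replicates. The mice had a mixed background of C57BL/6 and CD1 and were not treated. Mutants had the genotype Six2-Cre+/- PKAcaR fl/wt and controls the genotype Six2-Cre+/- PKAcaR wt/wt, so the Cre transgene, driven by the Six2 gene's control region, was present in both groups. PKAcaR is an allele of Prkaca, which encodes a catalytic subunit of protein kinase A, the kinase that cyclic AMP switches on. The allele is known from the literature to give a kinase that is active without cyclic AMP after Cre recombination. No label gives the animals' age or sex. The corpus was used as tissue, so a difference in RNA per cell cannot be told apart from a difference in the number of cells of a type.

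An integrin is a pair of 1 alpha and 1 beta chain in the plasma membrane, and the pairing sets which matrix protein or cell-surface ligand it binds. Laminins are secreted as trimers of 1 alpha, 1 beta and 1 gamma chain and form the sheet of the basement membrane under epithelia and around muscle, nerve and vessels. In epithelia the Itga6 and Itgb4 products form the integrin of hemidesmosomes, which is known to bind a laminin that contains the Lama3 and Lamb3 chains. Leukocytes carry integrins of their own, built mainly on Itgb2 and Itgb7, for adhesion to vessels and epithelium.

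Total counts per library lay between 18184281 and 23814720 in mutants and between 18942308 and 22814152 in controls. Prkaca itself was at 37.9 ± 1.87 CPM in mutants and 80.2 ± 4.05 CPM in controls (CPM, counts scaled to libraries of one size with TMM factors; SD, n = 4 each; log2 fold change -1.08, SE 0.09, adjusted p = 0.000604). Parietal cell markers summed to 11.3 to 2040 CPM in mutants and to 13712 to 17584 CPM in controls, so the controls carried the marker transcripts of the labelled region. Chief cell markers summed to 848 to 40208 CPM in mutants and 294612 to 528780 CPM in controls, and mucous neck cell markers, of which 4 of 4 rose, to 6073 to 17744 CPM in mutants and 1106 to 3171 CPM in controls. Mutant 2 stood apart, with correlations across genes of log2 CPM of 0.839 to 0.881 with the other mutants, against at least 0.977 among the other 3 mutants. Fibroblast markers summed to 12088 CPM in mutant 2, against 590 to 851 CPM in the other mutants and 584 to 706 CPM in controls. Leukocyte markers summed to 1575 CPM in mutant 2, 159 to 323 CPM in the other mutants and 139 to 150.3 CPM in controls. Squamous forestomach markers summed to 733 CPM in mutant 3 and 273 CPM in control 3, against at most 3.47 CPM in the other 6 libraries. Smooth muscle markers summed to 322 to 929 CPM in mutants and 3116 to 4089 CPM in controls. The part of these differences in the results was not tested beyond the values given without a library.

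Of the 37 genes, 36 had enough reads to be tested, and 10 of these rose in mutants, 1 fell and 25 did not pass the test. The test was the quasi-likelihood test of edgeR, with a Benjamini-Hochberg threshold of 0.05 over 15862 genes, and it called 20.2% of all genes in either direction. The 10 genes were 27.8% of those tested, where 9.39% of all genes tested rose. The 1 gene that fell was 2.78%, where 10.8% of all genes fell. The genes that rose included the laminin chain genes Lama1, Lama3 and Lama5 and the integrin genes Itga2, Itga3, Itga4, Itgae, Itgal and Itgax. Itga8 fell. The median log2 fold change, mutant over control, was 0.63 over the 36 genes and 0.07 over all genes. All 4 mutants lay above all 4 controls in 12 of the 36 genes and below them in 1, where 14.2% and 16.1% of all genes tested did so. Itgad, a leukocyte integrin gene, had 1 read in 1 mutant and 2 reads in 1 control and was not tested.

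Without mutant 2 the same 10 genes were higher, and Itga6, Itgb4, Itgb2, Lamb1 and Lamc1 joined them, while Itga9 joined Itga8 among the lower genes (background 15.2% higher and 18.3% lower). Without both libraries that held squamous transcripts, Itga2, Itga4, Itgax, Lama1 and Lama5 were higher and Itga8 was lower (background 3.67% and 5.14%). Scaling by column totals shifted the median of all genes by 0.70, and 30 members were then higher and none lower (background 59.3% and 4.56%).

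**Figure D1:**
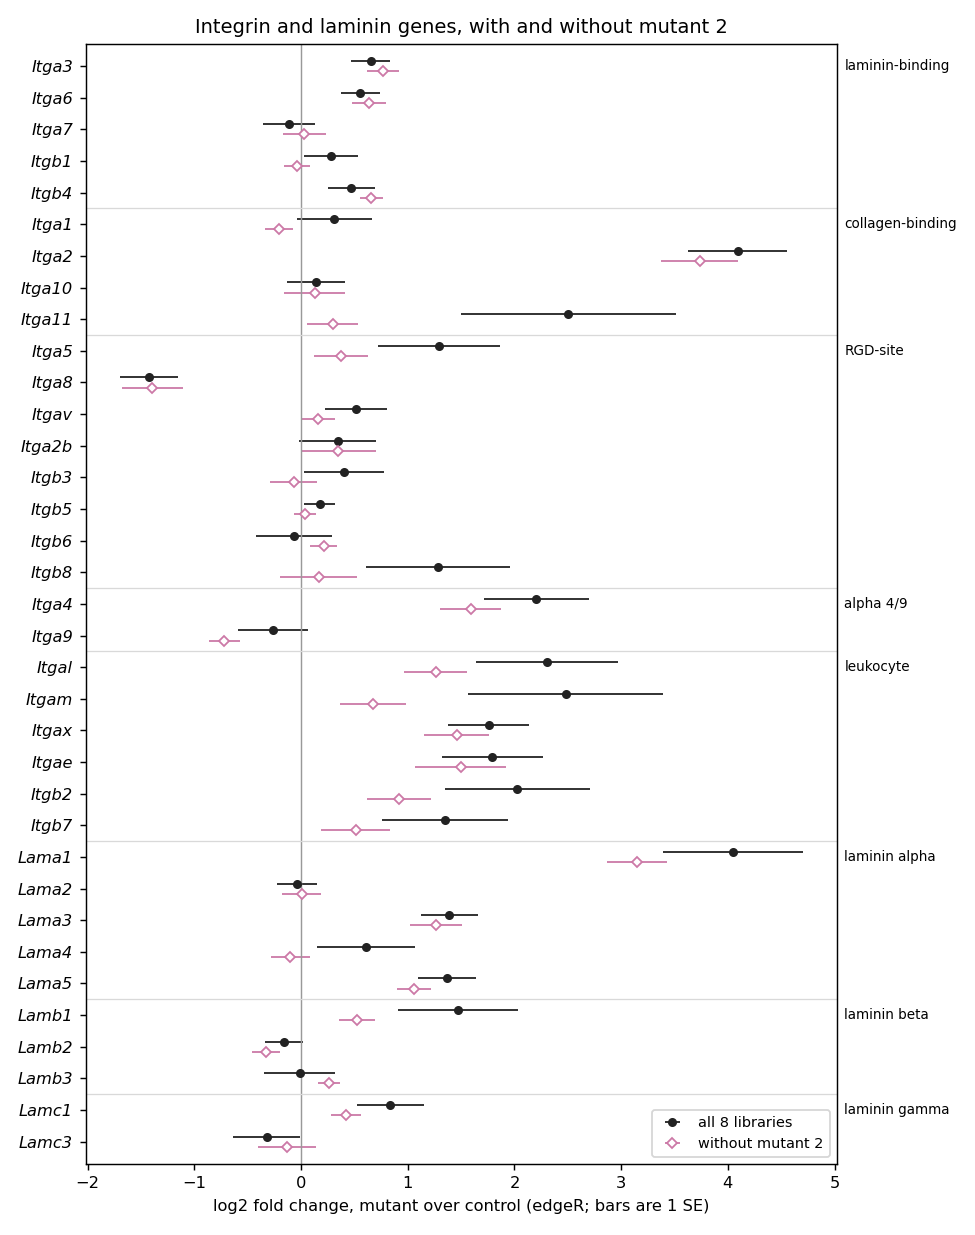
Log2 fold change of 35 of the tested genes, mutant over control, from edgeR with all 8 libraries (filled circles) and without mutant 2 (open diamonds), with bars of 1 SE and genes grouped by role. Itga2 and Lama1 lie farthest to the right in both fits, at 4.09 and 4.05 with all libraries, while Itga11, Itgam and Lamb1 move toward 0 without mutant 2.

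The 300-base promoter windows of 3 genes that rose are shown, as 1 of the 2 genes with the largest rises and as called genes with and without letters of the sites that protein kinase A's known target CREB or the stress-activated factor AP-1 can bind. They run from 250 bases before to 50 bases after a transcript start and come from RefSeq on GRCm38.p6. Windows were found for 23 of the 37 genes, 26 windows in all. Capitals mark the cyclic AMP response half-site TGACG or the AP-1 motif TGANTCA, read on both strands.
Itga2, chr13:114932051-114932350, minus strand: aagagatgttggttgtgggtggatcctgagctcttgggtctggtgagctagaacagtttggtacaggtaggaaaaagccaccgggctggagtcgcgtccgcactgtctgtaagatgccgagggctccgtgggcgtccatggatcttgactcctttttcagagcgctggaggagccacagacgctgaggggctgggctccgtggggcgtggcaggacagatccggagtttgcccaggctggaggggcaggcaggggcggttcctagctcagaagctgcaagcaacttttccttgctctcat
Lama5, chr2:180225810-180226109, minus strand: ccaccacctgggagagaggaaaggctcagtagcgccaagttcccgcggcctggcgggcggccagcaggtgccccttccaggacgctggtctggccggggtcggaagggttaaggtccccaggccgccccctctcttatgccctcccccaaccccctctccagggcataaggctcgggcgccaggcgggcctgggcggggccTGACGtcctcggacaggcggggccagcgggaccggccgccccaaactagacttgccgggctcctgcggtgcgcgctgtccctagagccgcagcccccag
Itgax, chr7:128129300-128129599, plus strand: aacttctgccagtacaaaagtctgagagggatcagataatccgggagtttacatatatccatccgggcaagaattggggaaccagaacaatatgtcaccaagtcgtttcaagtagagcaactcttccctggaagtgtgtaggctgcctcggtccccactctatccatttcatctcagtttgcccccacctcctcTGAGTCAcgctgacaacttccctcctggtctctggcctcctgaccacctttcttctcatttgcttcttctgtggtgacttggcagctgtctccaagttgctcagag
TGACG occurred in 5 of the 26 windows (Itga9, Itgb1, Itgb6, Lama5 and Lamb2), and in 20.8% of all 32851 windows. TGANTCA occurred in 3 of the 26 (Itga3, Itga9 and Itgax), and in 7.81% of all windows. The full palindrome TGACGTCA, which contains TGACG, was in none of the 26 and in 1.79% of all. A match is a string of letters and not a measured site. Of the 7 genes that matched either motif, Itga3, Itgax and Lama5 were among those that rose. The 27.8% of the 36 tested members that rose includes genes without a window, so it is no base for that number. The share that rose among the 23 genes with a window was not counted. A link between matches and rises was not tested.

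Of the 5 laminin alpha chain genes, 3 rose and 2 did not pass, where 9.39% of all genes tested rose. Lama1, the alpha chain of early embryonic basement membranes with a narrow range in adult epithelia (ENSMUSG00000032796, chromosome 17, 67697259 to 67822647), was at 19.0, 105, 18.5 and 33.04 CPM in mutants, against 1.88, 3.49, 1.98 and 3.23 CPM in controls. Every mutant was more than any control, and the highest value by far was that of mutant 2. The mean was 43.8 ± 41.2 CPM in mutants and 2.65 ± 0.833 CPM in controls (SD, n = 4 each), a 16.5-fold difference (log2 fold change 4.05, SE 0.65, adjusted p = 0.00541). Without mutant 2 the log2 fold change was 3.15 (SE 0.28, adjusted p = 3.54e-05).

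Lama5, the alpha chain most widely found in adult epithelial and vascular basement membranes (ENSMUSG00000015647, chromosome 2, 180176373 to 180225859), was at 148, 238, 89.9 and 128 CPM in mutants, against 54.3, 53.4, 59.2 and 67.0 CPM in controls. The groups did not overlap, and mutant 3 was the nearest to the controls. Lama5 averaged 151 ± 62.8 CPM in mutants and 58.4 ± 6.21 CPM in controls (SD, n = 4 each), 2.58 times as much (log2 fold change 1.37, SE 0.27, adjusted p = 0.0122). Lama3, the alpha chain of the hemidesmosome laminin (ENSMUSG00000024421), was at 15.9, 30.5, 20.01 and 31.0 CPM in mutants, against 7.28, 10.7, 7.596 and 11.5 CPM in controls. Again no mutant fell within the control range, and the ratio of the fitted levels was 2.62 (log2 fold change 1.39, SE 0.27, adjusted p = 0.0103). Without control 3 and mutant 3 the log2 fold change of Lama3 was 1.39 (SE 0.33, adjusted p = 0.0509). Both remaining alpha genes overlapped between the groups. Lama4, the alpha chain of vessels and muscle, was at 28.2, 114, 27.1 and 42.1 CPM in mutants, against 29.4, 30.8, 42.0 and 36.7 CPM in controls. Mutant 2 was far above the controls, mutant 4 was level with the highest control, and mutants 1 and 3 were just below the lowest (log2 fold change 0.61, SE 0.46, adjusted p = 0.369). The log2 fold change of Lama4 without mutant 2 was -0.10 (SE 0.18, adjusted p = 0.711). Lama2, the alpha chain of muscle and peripheral nerve, averaged 15.4 ± 2.06 CPM in mutants and 15.8 ± 3.34 CPM in controls and did not pass (log2 fold change -0.04, SE 0.18). Its log2 fold change turned to 0.66 with column totals (adjusted p = 0.0147), which is below the 0.70 by which that scaling shifted the median.

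**Figure D2:**
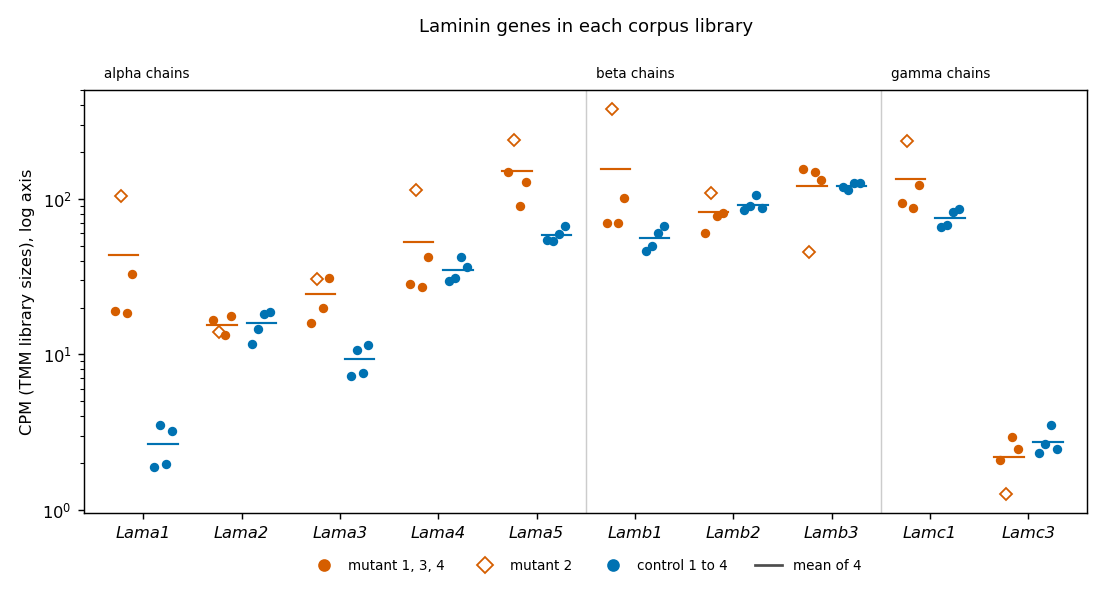
CPM of 10 laminin genes in each library on a log axis, mutants left of controls, with lines at the mean of 4 and mutant 2 drawn as an open diamond. All mutants lie above all controls for Lama1, Lama3, Lama5, Lamb1 and Lamc1, and mutant 2 is the lowest library for Lamb3 at 45.5 CPM.

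None of the 3 beta chain genes passed edgeR and 1, Lamb1, had an unadjusted p under 0.05. DESeq2 gave Lamb1 no adjusted p and called neither of the other two. Lamb1, the widely used beta chain, was at 70.3, 379.8, 70.3 and 102 CPM in mutants, against 46.3, 50.1, 60.8 and 67.4 CPM in controls. All mutants were above all controls, mutants 1 and 3 by little and mutant 2 by much (log2 fold change 1.47, SE 0.56, adjusted p = 0.0969). Without mutant 2 the spread was smaller, and the log2 fold change was 0.53 (SE 0.17, adjusted p = 0.0331). Lamb3, the beta chain of the hemidesmosome laminin, was at 156, 45.5, 149 and 132 CPM in mutants, against 119.6, 115, 126 and 127 CPM in controls. The other 3 mutants were above every control and mutant 2 was below (log2 fold change -0.01, SE 0.33, adjusted p = 0.982), and Lamb3 did not pass without mutant 2 either, at 0.26 (SE 0.10, adjusted p = 0.0701). Lamb2, the beta chain of smooth muscle, vessel and synaptic basement membranes, averaged 82.3 ± 20.3 CPM in mutants and 92.0 ± 9.60 CPM in controls (SD, n = 4 each), without a call (log2 fold change -0.16, SE 0.18, adjusted p = 0.549).

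Lamc1, the gamma chain of most laminins, was at 94.6, 237, 87.1 and 122 CPM in mutants, against 66.1, 67.9, 82.7 and 86.3 CPM in controls. All mutants were above all controls, mutant 3 by little and mutant 2 by the most (log2 fold change 0.84, SE 0.31, adjusted p = 0.0943). Without mutant 2 Lamc1 was higher, at 0.42 (SE 0.14, adjusted p = 0.0414). Lamc3 averaged 2.19 ± 0.701 CPM in mutants and 2.73 ± 0.536 CPM in controls, with overlapping groups.

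Col17a1, the hemidesmosome collagen, was at 0.334, 1.14, 13.6 and 0.386 CPM in mutants, against 0.188, 0.0659, 2.55 and 0.0598 CPM in controls, highest in mutant 3 and, among controls, in control 3. Without control 3 and mutant 3 the log2 fold change of Lamb3 was -0.11 (SE 0.43, adjusted p = 0.882), and that of Lama3 is given above. Beyond these values, the part of the squamous transcripts in the hemidesmosome laminin chains was not tested.

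Levels of different chains were compared as FPKM, the authors' values per kilobase of gene length, and as shares within a library, which do not depend on the scaling between libraries. Lama5 was the most abundant alpha chain in every library, with 46.5% to 65.7% of summed alpha chain FPKM in mutants and 48.5% to 54.2% in controls. Lama1 took 9.89%, 24.1%, 12.9% and 15.5% in mutants, against 2.21%, 3.80%, 1.91% and 2.91% in controls. Lama1 was the lowest of the 5 alpha chains in every control and lay above Lama2 in every mutant. Lama4 took 11.8% to 21.1% in mutants and 26.5% to 32.5% in controls, and Lama2 took 1.90% to 5.57% in mutants and 8.13% to 10.4% in controls. Both shares were lower in every mutant than in any control. A share also falls when other chains of its class rise, and neither gene was called (log2 fold change 0.61 for Lama4 and -0.04 for Lama2).

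Among beta chains Lamb3 led in every control, with 44.8% to 49.1%. In mutants it took 58.1%, 10.9%, 53.2% and 45.7%, and in mutant 2 Lamb1 led instead with 60.6%. The mean share of Lamb1 was 29.6% in mutants, or 19.2% without mutant 2, and 14.4% in controls. Lamb2 took 24.5% to 30.7% in mutants and 35.5% to 40.9% in controls, without overlap, while the gene itself was not called (log2 fold change -0.16). Of the FPKM of Itgb1 and Itgb4 together, Itgb4 took 29.4%, 9.06%, 27.9% and 27.4% in mutants, against 20.9%, 21.1%, 17.6% and 18.4% in controls. These shares are descriptions with no test.

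**Figure D3:**
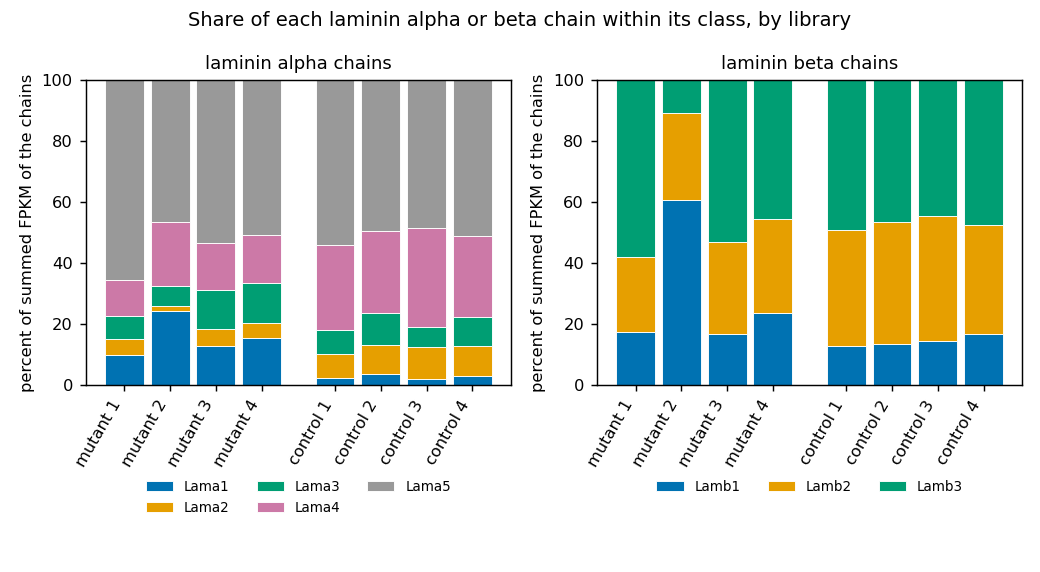
Share of each laminin chain in the summed FPKM of its class (alpha or beta), in percent, for each mutant library on the left and each control library on the right of a panel. The Lama1 segment spans 9.89% to 24.1% in mutants and 1.91% to 3.80% in controls, and mutant 2 differs from the other mutants in the beta panel.

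Integrins that bind laminin rose in 1 of 5 genes, where 9.39% of all genes tested rose. Itga3, an alpha chain of epithelial laminin receptors (ENSMUSG00000001507, chromosome 11, 95044474 to 95076801), was at 151, 107, 122 and 188 CPM in mutants, against 77.2, 102, 89.2 and 92.7 CPM in controls. The groups did not overlap, although mutant 2 lay close to control 2. Its means were 142 ± 35.9 CPM in mutants and 90.3 ± 10.3 CPM in controls (SD, n = 4 each), a modest 1.57-fold difference (log2 fold change 0.65, SE 0.19, adjusted p = 0.0420). The call was lost on leaving out any 1 library other than mutants 2 and 3 (adjusted p of at most 0.1074). Itga6, the alpha chain of the hemidesmosome integrin, was at 189.5, 161, 199 and 225 CPM in mutants, against 116, 127, 108 and 176 CPM in controls. Mutant 2 was below control 4, and the other mutants were above every control (log2 fold change 0.56, SE 0.18, adjusted p = 0.0622). Itgb4, its partner, was at 190.4, 98.6, 183 and 212 CPM in mutants, against 125, 133, 113 and 123 CPM in controls. Here mutant 2 was below every control, and the other 3 mutants were above every control (log2 fold change 0.47, SE 0.22, adjusted p = 0.162). Without mutant 2 both partners were higher, Itga6 by 0.63 (SE 0.16, adjusted p = 0.0110) and Itgb4 by 0.66 (SE 0.10, adjusted p = 0.000730).

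Itgb1, the common partner of most matrix-binding alpha chains, was the most abundant gene of the family per length, at 87.8 ± 35.5 FPKM in mutants and 72.2 ± 4.82 FPKM in controls (SD, n = 4 each). In CPM it was at 266, 576, 274 and 326 CPM in mutants, against 274, 288, 309 and 318 CPM in controls. Mutant 2 was the highest, mutant 4 was just above the controls, and mutants 1 and 3 were just below them (log2 fold change 0.28, SE 0.25, adjusted p = 0.456). The value for Itgb1 without mutant 2 was -0.04 (SE 0.12), without a call. Itga7, the laminin receptor chain of muscle, averaged 30.8 ± 9.81 CPM in mutants and 33.4 ± 7.28 CPM in controls and did not pass (log2 fold change -0.11, SE 0.24). That value stood beside smooth muscle markers of which all 10 fell, where 10.8% of all genes tested fell. A link was not tested.

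Collagen-binding alpha chains rose in 1 of 4 genes, where 9.39% of all genes tested rose. Itga2, the alpha chain of a collagen and laminin receptor of epithelia and platelets (ENSMUSG00000015533, chromosome 13, 114833081 to 114932100), had, with Lama1, the largest rise of the 36 genes. Their log2 fold changes differed by less than either SE, and the order of the pair changed with the library left out. It was at 30.8, 53.1, 11.9 and 32.2 CPM in mutants, against 2.45, 1.32, 1.79 and 1.91 CPM in controls. Mutant libraries held 275 to 1299 reads of it and controls 20 to 39. The means were 31.98 ± 16.9 CPM in mutants and 1.87 ± 0.465 CPM in controls (SD, n = 4 each), a 17.1-fold difference (log2 fold change 4.09, SE 0.46, adjusted p = 0.00162). Every setting tried left Itga2 called, with log2 fold changes between 2.00 and 4.80, the lower one on the log2(FPKM + 1) scale. Itga1, also on chromosome 13 and a collagen receptor chain of mesenchymal cells, averaged 53.0 ± 32.1 CPM in mutants and 42.6 ± 5.94 CPM in controls, without a call (log2 fold change 0.31, SE 0.35, adjusted p = 0.557; without mutant 2, -0.20 (SE 0.13, adjusted p = 0.262)). Itga11, a collagen receptor chain of fibroblasts, was at 4.71, 74.8, 3.92 and 5.83 CPM in mutants, against 4.58, 3.56, 3.13 and 4.43 CPM in controls. Mutant 2 was far above all other libraries, and fibroblast markers were highest there too (log2 fold change 2.505, SE 1.006, adjusted p = 0.112), and without it the log2 fold change was 0.30 (SE 0.24, adjusted p = 0.374). Itga10, known from cartilage, averaged 3.22 ± 0.0620 CPM in mutants and 2.92 ± 0.922 CPM in controls and did not pass.

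**Figure D4:**
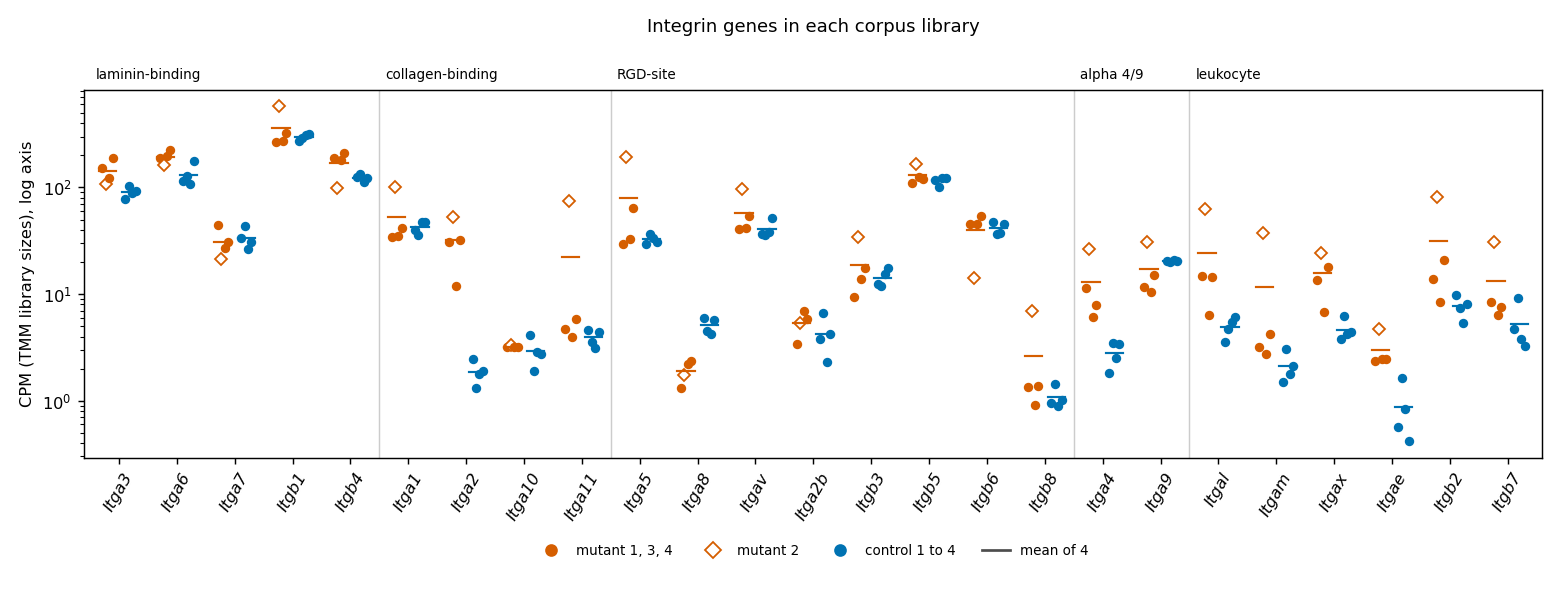
CPM of the 25 tested integrin genes in each library on a log axis, grouped by ligand or cell type, mutants left of controls, with lines at the mean of 4 and mutant 2 drawn as an open diamond. Itga2 is separated most, at 11.9 to 53.1 CPM in mutants and 1.32 to 2.45 CPM in controls, Itga8 is the gene whose mutants all lie below the controls, and mutant 2 is the highest mutant for many genes of the leukocyte group.

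Integrins that recognise the RGD site of fibronectin, vitronectin and related ligands did not rise in any of 8 genes (0 with an unadjusted p under 0.05 in that direction by edgeR, and 0 by DESeq2), and 1 fell. The background was 9.39% higher and 10.8% lower. Itga8, an alpha chain of mesenchymal and smooth muscle cells (ENSMUSG00000026768, chromosome 2, 12106632 to 12301922), was at 1.30, 1.76, 2.20 and 2.36 CPM in mutants, against 6.03, 4.55, 4.21 and 5.68 CPM in controls. All mutants were below all controls, from counts of 39 to 55 reads in mutants and 66 to 96 in controls. The means were 1.90 ± 0.474 CPM in mutants and 5.12 ± 0.875 CPM in controls (SD, n = 4 each), 2.69-fold lower in mutants (log2 fold change -1.43, SE 0.27, adjusted p = 0.01004), and the direction held with column totals at -0.74, without passing there (adjusted p = 0.0552). All 10 smooth muscle markers fell as well, where 10.8% of all genes tested fell. Itga7, Lama2, Lamb2 and Itga9, also known from muscle, were not called with all libraries. A link between Itga8 and the markers was not tested. Itga5, the main fibronectin receptor chain, was at 29.5, 192, 32.6 and 64.7 CPM in mutants, against 29.8, 36.3, 33.6 and 30.6 CPM in controls. Mutants 2 and 4 were above the controls, mutant 1 was just below the lowest, and mutant 3 lay among them (log2 fold change 1.29, SE 0.57, adjusted p = 0.142). Leaving out mutant 2 gave Itga5 a log2 fold change of 0.38 (SE 0.25, adjusted p = 0.290). Of the remaining genes, Itgav averaged 57.9 ± 25.9 CPM in mutants and 40.5 ± 7.74 CPM in controls, Itgb5 132 ± 24.9 CPM in mutants and 117 ± 10.1 CPM in controls, and Itgb6, the epithelial partner of Itgav, 39.7 ± 17.5 CPM in mutants and 41.6 ± 5.44 CPM in controls (SD, n = 4 each). None of these passed, and neither did Itgb3, Itgb8 or the platelet chain Itga2b.

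Itga4, the alpha chain of leukocyte receptors for VCAM1 and MADCAM1 (ENSMUSG00000027009, chromosome 2, 79255426 to 79333123), was at 11.3, 26.5, 6.12 and 7.84 CPM in mutants, against 1.82, 3.49, 2.49 and 3.41 CPM in controls. Each mutant was above each control, and mutant 2 was the highest (log2 fold change 2.21, SE 0.50, adjusted p = 0.0183). Without control 1 or control 3 the adjusted p of Itga4 was 0.0609 and 0.0598, and without mutant 2 its log2 fold change was 1.59 (SE 0.29, adjusted p = 0.00157). The annotated exons of Itga4 share 1124 bases with Cerkl on the other strand, and no source used here gives the strand setting of the counting. The called genes Itga8 and Lama3 share 372 bases with E030013I19Rik and 197 with Gm29200, also on the other strand. So do Itga7, Itgav, Itgb4, Lama2 and Lamc3, not called with all libraries, with other genes. On the same strand Itga10 shares 1739 bases with Gm42957 and Itga1 685 with Gm49395. Itga9, which is related to Itga4 and is known from smooth muscle and lymphatic vessels, was at 11.7, 31.0, 10.5 and 15.1 CPM in mutants, against 20.5, 19.8, 21.1 and 20.6 CPM in controls. The 4 controls were within 19.8 to 21.1 CPM, 3 mutants were below them and mutant 2 was above (log2 fold change -0.26, SE 0.33, adjusted p = 0.594). Without mutant 2 Itga9 was lower, at -0.72 (SE 0.15, adjusted p = 0.00303). With all libraries and column totals its log2 fold change was 0.45 (adjusted p = 0.272).

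Leukocyte integrins rose in 3 of 6 tested genes, where 9.39% of all genes tested rose. The median log2 fold change of the 6 was 1.91, or 1.09 without mutant 2. Itgal, the alpha chain of the lymphocyte integrin that binds ICAM1, was at 14.9, 62.4, 6.34 and 14.4 CPM in mutants, against 3.58, 4.68, 5.49 and 6.04 CPM in controls. Mutant 3 was close to control 4, and mutant 2 was several times any other library (log2 fold change 2.31, SE 0.66, adjusted p = 0.0433). For Itgal without mutant 2 the log2 fold change was 1.26 (SE 0.30, adjusted p = 0.00771). Leaving out any 1 library other than mutants 2 and 3 ended that call (adjusted p of at most 0.1186). Itgax, the alpha chain best known from dendritic cells, was at 13.5, 24.5, 6.77 and 17.96 CPM in mutants, against 3.77, 6.19, 4.21 and 4.37 CPM in controls, and mutants 1, 2 and 4 were well above the control range with mutant 3 just above it (log2 fold change 1.76, SE 0.38, adjusted p = 0.0161). Without control 1 or control 3 the adjusted p of Itgax was 0.0563 and 0.0536. Itgae, the alpha chain of intraepithelial lymphocytes that binds E-cadherin, was at 2.37, 4.70, 2.46 and 2.49 CPM in mutants, against 0.565, 1.65, 0.830 and 0.419 CPM in controls. The 3 mutants other than mutant 2 were within 2.37 to 2.49 CPM, and no control was above 1.65 CPM (log2 fold change 1.79, SE 0.48, adjusted p = 0.0322). Control values rested on 7 to 25 reads, and the call was lost without mutant 4 or without control 1, 3 or 4 (adjusted p of at most 0.0925).

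Itgb2, the beta chain shared by most leukocyte integrins, was at 13.9, 81.5, 8.45 and 21.0 CPM in mutants, against 9.86, 7.44, 5.30 and 8.02 CPM in controls. Mutant 3 lay within the control range and the others above it (log2 fold change 2.03, SE 0.68, adjusted p = 0.0688), and without mutant 2 Itgb2 was higher, at 0.92 (SE 0.30, adjusted p = 0.0376). Itgam, the alpha chain of neutrophils and macrophages, was at 3.17, 37.0, 2.72 and 4.2 CPM in mutants, against 1.51, 3.03, 1.79 and 2.09 CPM in controls. Mutant 2 was far above every other library (log2 fold change 2.48, SE 0.91, adjusted p = 0.0882), and leaving it out gave 0.68 (SE 0.31, adjusted p = 0.115). Of its exons 3450 bases are shared with the protein-coding gene Gm49368 on the same strand. Itgb7, the beta partner of Itga4 and Itgae, averaged 13.3 ± 11.8 CPM in mutants and 5.23 ± 2.69 CPM in controls, without a call (log2 fold change 1.35, SE 0.59, adjusted p = 0.138; without mutant 2, 0.51 (SE 0.32, adjusted p = 0.254)).

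These rises stood beside a rise of 4 of 10 leukocyte markers, where 9.39% of all genes tested rose. Ptprc, the gene of the pan-leukocyte antigen CD45, was among them, at 24.2, 136, 12.4 and 28.0 CPM in mutants, against 7.03, 11.1, 8.30 and 9.93 CPM in controls. Its log2 fold change was 2.46 (SE 0.71, adjusted p = 0.0443), or 1.24 (SE 0.26, adjusted p = 0.00527) without mutant 2. A ratio to Ptprc within each library, chosen after the values were seen, was added. Itgal FPKM per 100 Ptprc FPKM were 128 to 171 in mutants and 117 to 184 in controls. For Itgb2 they were 343 to 451 in mutants and 383 to 841 in controls. Itgax gave 212, 68.8, 208 and 245 in mutants, against 168 to 212 in controls. Mutant 2 was below the controls there, mutant 4 above them, and the others level with the highest. Itgae gave 39.1, 13.8, 79.1 and 35.5 in mutants and 16.9 to 59.1 in controls. Itga4 gave 61.3, 25.6, 64.6 and 36.7 in mutants and 33.9 to 45.0 in controls. For Itga4 mutants 1 and 3 were above every control and mutant 2 was below. Itgam gave 47.8 to 99.3 in mutants and 76.9 to 99.2 in controls, and Itgb7 151 to 337 in mutants and 215 to 544 in controls. For each of these genes the groups overlapped in this ratio, which was not tested. Overlap in it was not counted over all genes.

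Other genes of the adhesion machinery were counted by list. Of 18 adaptors and kinases that join integrins to the cytoskeleton, 1 rose, 1 fell and 16 did not pass (background 9.39% higher and 10.8% lower). Their median log2 fold change was 0.24 (-0.06 without mutant 2). Pxn, the focal adhesion scaffold paxillin, rose (131 ± 8.08 CPM in mutants and 98.3 ± 6.93 CPM in controls; log2 fold change 0.42, SE 0.10, adjusted p = 0.0213). It did not pass without control 3 and mutant 3 (log2 fold change 0.43, SE 0.14, adjusted p = 0.102). Lims2, the gene of an adaptor that binds integrin-linked kinase, was at 4.18, 4.17, 7.93 and 8.40 CPM in mutants, against 31.6, 22.8, 38.0 and 27.6 CPM in controls and fell (log2 fold change -2.28, SE 0.30, adjusted p = 0.00243). Fermt1, the epithelial kindlin that activates integrins, was at 201, 62.9, 141 and 149 CPM in mutants, against 76.8, 92.0, 77.4 and 88.3 CPM in controls, with mutant 2 below the controls and the other mutants above (log2 fold change 0.73, SE 0.30, adjusted p = 0.123). Without mutant 2 the list had 2 higher genes, Pxn and Fermt1, and 4 lower ones, named once their values were known (background 15.2% higher and 18.3% lower). Fermt1 was then at a log2 fold change of 0.97 (SE 0.14, adjusted p = 0.000344). The lower genes were Lims2 at -2.14 (SE 0.26, adjusted p = 0.000261), Fermt2 at -1.41 (SE 0.20, adjusted p = 0.000522), Parvb at -0.78 (SE 0.24, adjusted p = 0.0254) and Lims1 at -0.41 (SE 0.12, adjusted p = 0.0192).

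Among hemidesmosome partners 3 of 6 genes were tested and 1 rose, where 9.39% of all genes tested rose and 10.8% fell. Plec, the gene of the linker plectin, rose (338 ± 46.9 CPM in mutants and 244 ± 21.4 CPM in controls; log2 fold change 0.47, SE 0.14, adjusted p = 0.0477), and Dst and Cd151 did not pass. Plec did not pass without control 3 and mutant 3 (log2 fold change 0.52, SE 0.17, adjusted p = 0.105). Without mutant 2 Dst was lower, at -1.10 (SE 0.19, adjusted p = 0.00160). Reads were counted for each gene, so the forms of Dst were not told apart. Krt5, Krt14 and Col17a1 had too few reads outside mutant 3 and control 3 to be tested. None of 6 other basement membrane glycoprotein genes passed edgeR, 1 had an unadjusted p under 0.05, and none of the 3 to which DESeq2 gave an adjusted p passed there. Of 3 other laminin receptor genes, Bcam, which binds the Lama5 chain, was at 23.8, 27.3, 40.1 and 31.5 CPM in mutants, against 67.5, 57.4, 72.8 and 64.8 CPM in controls and fell (log2 fold change -1.10, SE 0.17, adjusted p = 0.00433). With column totals it was at -0.40 (adjusted p = 0.0574).

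Ligands of integrins other than laminins rose in 2 of 11 tested genes and fell in 1 (background 9.39% higher and 10.8% lower). Icam1, the ligand of Itgb2 integrins, rose (29.4 ± 21.9 CPM in mutants and 5.68 ± 1.04 CPM in controls; log2 fold change 2.37, SE 0.50, adjusted p = 0.0141; without mutant 2, 1.75 (SE 0.28, adjusted p = 0.00105)), as did Thbs1, a matrix glycoprotein of wounds and platelets (213 ± 168 CPM in mutants and 35.7 ± 16.02 CPM in controls; log2 fold change 2.57, SE 0.58, adjusted p = 0.0192; without mutant 2, 1.88 (SE 0.44, adjusted p = 0.0188)). Vtn, the gene of vitronectin, was at 3.57, 13.1, 3.23 and 2.57 CPM in mutants, against 39.1, 40.0, 44.9 and 32.4 CPM in controls and fell (log2 fold change -2.80, SE 0.52, adjusted p = 0.00965). Every mutant was below every control, and the highest mutant was mutant 2, without which the log2 fold change of Vtn was -3.64 (SE 0.17, adjusted p = 6.43e-07). Fn1, the fibronectin gene, was also chosen once its values were known. It was at 201, 3785, 232 and 459 CPM in mutants, against 120.3, 145, 148 and 174 CPM in controls, without a call (log2 fold change 3.00, SE 0.97, adjusted p = 0.0624). The mutants other than mutant 2 were also above every control, and without mutant 2 Fn1 was higher, at 1.021 (SE 0.27, adjusted p = 0.0198).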

How the data were processed

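PolyA RNA of each corpus was sequenced after library preparation with a NEBNext Ultra kit, per the labels' protocols. The submitters' processing notes list CASAVA, fastp, STAR 2.5 and featureCounts but give no roles, and no source used here states the build or strand setting. The authors deposited whole-number read counts for each Ensembl gene and, for the same genes, FPKM values on a library size of their own. All 37 genes had the start and end of GENCODE M21 (GRCm38). One control column, headed SCI, was taken to be SC1.

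Counts were filtered with filterByExpr, scaled with TMM and tested with edgeR 4.0.16 (R 4.3.3, robust quasi-likelihood test), mutant over control, Benjamini-Hochberg adjusted over 15862 genes. Adjusted p-values come from edgeR where no other tool is named. The SE is the fitted coefficient divided by the square root of F. CPM are counts over TMM library sizes, and 3 counts were on average 0.120 CPM in mutants and 0.189 CPM in controls, for counting error only. Libraries of a group differed by more than sampling noise (chi-square of at least 14.8 for each degree of freedom). Alternatives were DESeq2 1.42.0, other scalings and filters, a replicate block, libraries left out, a threshold of 0.01, and limma-trend (limma 3.58.1) on log2 FPKM with a pseudocount of 1 or 0.1, for genes averaging 0.5 FPKM or more. The fits were tested on simulated data.

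The members and lists were chosen with earlier results of these data known. Genes were named if called, if called only without mutant 2 or without control 3 and mutant 3, or as the uncalled member with the smallest p of its role. Other members were named after their values were seen. Of other lists up to 3 called genes were named. One gene counted among the members is not reported here.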

Additional observations from a re-analysis of the deposited data

Results flagged for a closer look

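In 7 of 70 groups of 4 libraries checked (35 genes in mutants and in controls, on log2(CPM + 0.5)), 1 library was separated from the other 3 by a gap beyond Dixon's critical value for 4 samples. Chance alone flags about 1 in 20 such groups, and genes of 1 library are not independent. Mutant 2 was the separated library in 6 of them. It was the highest mutant for Itgae (4.70 CPM), Itgam (37.0 CPM), Itga11 (74.8 CPM) and Itgb7 (31.0 CPM), and the lowest for the epithelial genes Itgb6 (14.2 CPM) and Lamb3 (45.5 CPM). Mutant 2 also held the highest fibroblast and leukocyte marker sums of all libraries. Its endothelial marker sum was the highest too (666 CPM, against at most 180 CPM elsewhere). Its pan-epithelial marker sum was the lowest (1643 CPM, against at least 4074 CPM elsewhere). Control 4 was separated for Itgav, at 52.1 CPM against 35.7 to 37.9 CPM in the other controls. Across the 36 genes mutant 2 was the highest mutant for 24 and the lowest for 8.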

How the results depend on the processing

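Itga2 and Lama1 kept their call and direction in all 18 alternatives, and the 10 genes that rose did so with DESeq2 (33 members with an adjusted p), RLE size factors and the stricter filter as well. Genes of the family that were higher numbered 10, against 30 with column totals, 5 with limma-trend on log2(FPKM + 1), 5 without control 3 and mutant 3, 2 at an adjusted p under 0.01, and 4 to 15 when each library was left out. Without mutant 2 they numbered 15, and without control 1 or control 3 they numbered 4 (Itga2, Lama1, Lama3 and Lama5). Without mutant 4 they numbered 6. Over all genes, in either direction, 5400 were called without mutant 2, 1717 without control 1, 1723 without control 3 and 1926 without mutant 4. The share of all genes called higher was 15.2% without mutant 2 and was not taken for the fits without control 1, control 3 or mutant 4. Lower genes numbered 1, against 0 with column totals, with both limma-trend fits (mean FPKM of at least 0.5) and at an adjusted p under 0.01, and 1 to 2 with each library left out. Itga8 was not among the genes tested in the limma-trend fits. Over all genes 3208 were called, against 10136 with column totals, 1824 with the replicate block, 1410 without control 3 and mutant 3, 1047 at an adjusted p under 0.01, and 1717 to 5400 with each library left out. Column totals, which shifted the median of all genes by 0.70, turned the log2 fold changes of Lamb2 to 0.55 and Lama2 to 0.66. The cause of these differences was not tested, beyond the shift and the smaller number of libraries. Deviations of same-numbered libraries from their own group means had correlations of -0.091 to 0.062 across all genes tested. Mutant 2, which stood apart, weighs on the deviations of every mutant. These correlations therefore cannot show whether same-numbered libraries belong together. Mutant 3 and control 3 both held squamous transcripts, and whether same-numbered libraries share more than a number was not tested. With the replicate block 8 family genes were higher, 7 of them also higher without it, and 1 was lower. Without mutant 2 the mean mutant shares of Lama1 and Itgb4 were 12.8% and 28.3%, against 15.6% and 23.5% with it. Depth limits genes with few reads, such as Itgad (at most 2 in any library), Lamc3 (68), Itga10 (95), Itga8 (96) and Itgae (115).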
